A study of Rattus norvegicus with 15 samples.

Results

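Rat1a cells carrying K158R MYC (the R158 line, 3 libraries) were compared with Rat1a cells carrying wild-type mouse MYC (the WT line, 3 libraries). These 6 libraries, taken by the construct named in their labels, are part of a series of 15, and the comparison ran across all Ensembl genes with enough reads, 13676 of 32545. Rat1a is an immortalised rat fibroblast line that keeps its own Myc gene and was grown attached in medium with serum. R158 cells stably expressed MYC with arginine in place of the lysine that K158R names, and WT cells stably expressed mouse MYC without a substitution. The other lines carried K149R MYC (R149), K323R MYC (R323) or an empty vector (EV), 3 libraries each, and enter here as reference levels. Each construct was represented by a single stable line, so a difference between R158 and WT can belong to the line or to the substitution, and these cannot be told apart. The labels give neither the promoter of the vectors nor whether a line is a clone or a pool.

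MYC is a transcription factor that pairs with MAX, binds E-box sequences near many promoters and recruits cofactors, among them histone acetyltransferases. These enzymes also acetylate MYC itself on several lysines. Arginine keeps the positive charge of lysine but cannot be acetylated, so the comparison of R158 with WT asks which RNAs differ when this 1 lysine can no longer carry the mark. Rat fibroblasts such as Rat1a are a common host for tests of transformation by MYC.

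The measured quantity was the number of mRNA reads per gene, and levels are given as CPM, the counts of a library scaled to the same total as those of the others. The R158 libraries held 13303631, 29344836 and 16872494 counts (replicates 1, 2 and 3) and the WT libraries 38120697, 32783771 and 23046620 counts. The tables identify genes by Ensembl identifier only, and 0 identifiers could be paired with a symbol. The level of Myc and the fibroblast markers were therefore not read, the line labels were not checked against them, and genes are described as groups with 4 shown by identifier. R158 replicate 1 correlated more closely with WT replicate 1 (Pearson r 0.986 over log2 CPM of the genes tested) than with R158 replicates 2 and 3 (0.982 and 0.984). WT replicates 2 and 3 correlated at 0.993, and each correlated with WT replicate 1 at 0.984 and 0.981.

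R158 and WT cells differed in 82 of 13676 genes, 0.600% of those tested, at an adjusted p below 0.05 (edgeR quasi-likelihood test, Benjamini-Hochberg). In R158, 39 genes were higher (0.285%) and 43 were lower (0.314%). Falls of at least 2-fold outnumbered such rises. Of the 43 lower genes, 33 fell at least 2-fold, 23 at least 4-fold and 16 at least 8-fold. The 39 higher genes held 20 rises of at least 2-fold, 11 of at least 4-fold and 7 of at least 8-fold. Changes of at least 2-fold were thus called for 53 genes, 0.388% of those tested. The median log2 fold change was 1.00 for the higher genes and -2.11 for the lower genes, beside 0.01 for all genes tested. For the 4 genes without any count in 1 of the lines, a floor of 3 counts over that line left both medians the same. This is no test of the medians, because these genes stayed beyond them at that floor and so could not move them. For all 82 genes the R158 and WT libraries did not overlap, which was also so for 13.0% of all genes tested.

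**Figure D1:**
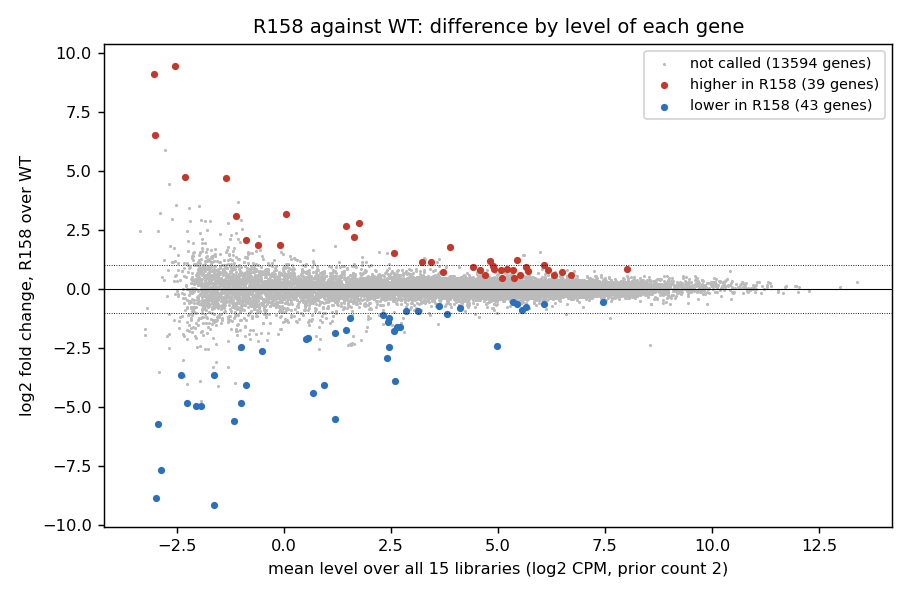
Log2 fold change of R158 over WT (vertical axis) against the mean log2 CPM over 15 libraries (horizontal axis), 1 point per gene, with dotted lines at 2-fold. The 39 higher genes reach the abundant range, whereas most of the 43 lower genes lie at low levels and far from the zero line.

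The number of calls depended on how the replicates were treated. With the replicate number as a block, since libraries of equal number deviated together, 244 genes were called (1.78%), 117 higher and 127 lower, and all 82 genes were among them. Leaving out WT replicate 1 raised the count to 206 genes, and leaving out R149 replicate 1, which shares the estimate of spread, raised it to 143. R149 replicate 1 had the fewest genes detected of all libraries, 13955, and R158 replicate 1 was next with 15056. R149 replicate 1 also enters the R149 reference levels given below. Leaving out R158 replicate 1, 2 or 3 lowered the number of calls to 45, 23 or 32 genes, and leaving out WT replicate 2 or 3 to 33 or 19. The balance of directions moved as well, to 71 higher and 135 lower without WT replicate 1 and to 33 higher and 19 lower with limma-voom. The excess of falls among changes of at least 2-fold turned in 2 of the 19 alternatives, with 17 rises and 13 falls with limma-voom and 9 and 8 without R158 replicate 2.

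ENSRNOG00000052880 fell furthest in R158. It stood at 0, 0.106 and 0.116 CPM in R158 replicates 1, 2 and 3, against 17.9, 66.5 and 65.7 CPM in WT replicates 1, 2 and 3. These levels rest on 0, 3 and 2 counts in R158 and 658, 2259 and 1542 counts in WT. Every WT library was far above every R158 library, and WT replicate 1 was the lowest of the WT libraries. The log2 fold change was -9.13 ± 0.67 (SE, 95% interval -10.56 to -7.70), with an edgeR adjusted p of 7.4e-06. With limma-voom the adjusted p was 0.0790. The gene was near 0 in the other lines too, with at most 0.0374 CPM in a R149 library, 0.117 in a R323 library and 0.0655 in an EV library.

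ENSRNOG00000014253 was the second largest fall. No R158 library had a count, and WT replicates 1, 2 and 3 had 18, 70 and 62 counts, or 0.490, 2.06 and 2.64 CPM. The R158 and WT libraries did not overlap, and WT replicate 1 was again the lowest of its line. Set against 3 counts over the R158 libraries, a level of 0.0514 CPM, the gene was at least 33.6-fold lower in R158. The edgeR adjusted p was 0.0201, and it was 0.0689 in a fit of the 6 libraries alone and 0.0551 with limma-voom. It was between 0.0533 and 0.112 without R158 replicate 1, 2 or 3 or WT replicate 2 or 3. The gene had 4 counts over the R149 libraries, 1 over the R323 libraries and 0 over the EV libraries.

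ENSRNOG00000015783 rose furthest in R158, by the fitted fold. It had 22, 92 and 48 counts in R158 replicates 1, 2 and 3, or 1.73, 3.24 and 2.79 CPM, and no count in any WT library. Against 3 counts over the WT libraries, or 0.0318 CPM, it was at least 81.2-fold higher in R158, with an edgeR adjusted p of 8.6e-04. It was called in each of the 19 alternatives tried. The other lines were low, with at most 0.0281 CPM in a R149 library, 0.291 in a R323 library and 0.0537 in an EV library.

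ENSRNOG00000038115 had 14, 74 and 42 counts in R158 replicates 1, 2 and 3, which is 1.10, 2.61 and 2.44 CPM. It had no count in any of the 12 libraries of the other lines, so reads of this gene were seen in R158 alone at these depths. It was at least 64.4-fold higher in R158 than in WT, with an edgeR adjusted p of 0.0160. The adjusted p was 0.496 with DESeq2. It was between 0.0594 and 0.101 without R158 replicate 2 or 3 or WT replicate 2 or 3.

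**Figure D2:**
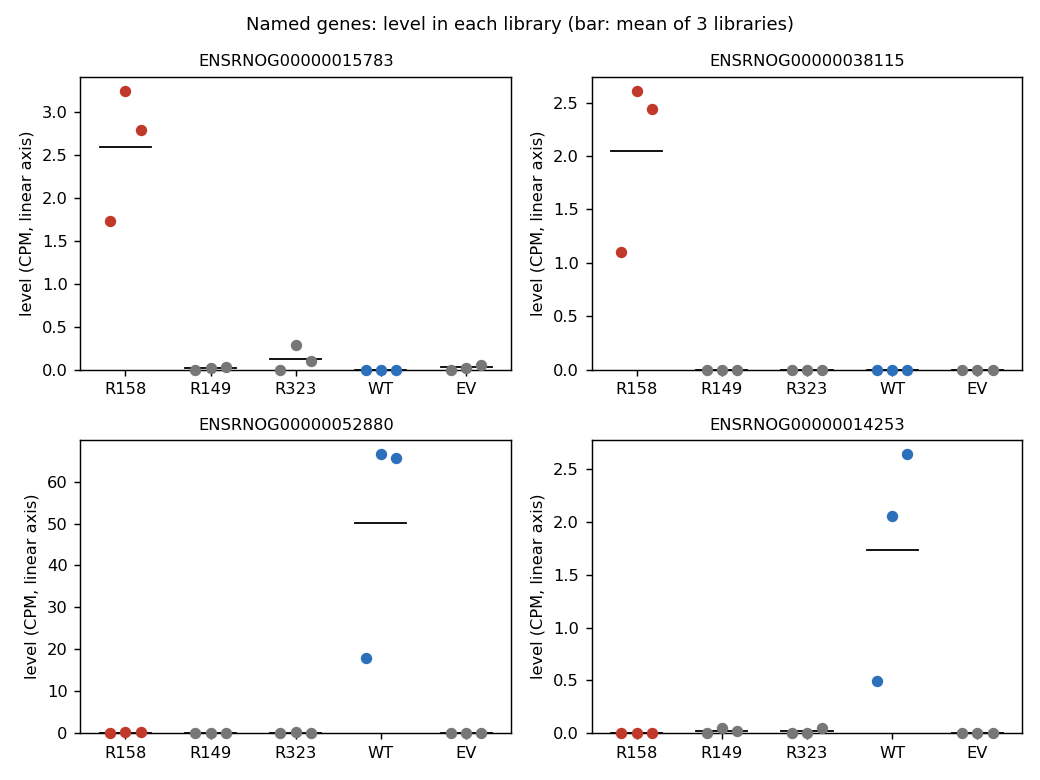
CPM of the 4 genes shown by identifier in each library (points, replicates 1 to 3 from left to right) with the mean of 3 libraries (bar), on linear axes. The upper genes are above 1 CPM in every R158 library and at 0 in WT, and the lower genes are at or near 0 in R158 and reach 66.5 and 2.64 CPM in WT.

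A minority of the called genes were close to undetected in R158 or in WT. Of the 43 lower genes, 7 averaged below 0.1 CPM in R158, and 2 of these had no R158 count. Of the 39 higher genes, 5 averaged below 0.1 CPM in WT, and 2 of these had no WT count. The other called genes averaged at least 0.1 CPM in both lines, some of them only just.

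The higher genes were the more abundant group. Their median level was 28.3 CPM in R158 and 15.3 CPM in WT, and the highest mean in the group was 415 CPM in R158 and 234 CPM in WT. The lower genes had a median of 1.74 CPM in R158 and 9.22 CPM in WT, with highest means of 119.8 CPM in R158 and 177 CPM in WT. Genes were also ranked by their mean over all libraries. Among the quartile with the highest levels (median 126 CPM), 6 genes rose and 2 fell, and in the next quartile (39.7 CPM) 15 rose and 5 fell. In the quartile at 12.3 CPM, 5 rose and 18 fell, and in the lowest quartile (1.06 CPM) 13 rose and 18 fell. With the replicate block, 25 genes rose and 14 fell in the top quartile, 41 rose and 30 fell in the next, 28 rose and 46 fell at 12.3 CPM, and 23 rose and 37 fell in the lowest. The median standard error of a log2 fold change was 0.13 in the top quartile and 0.44 in the lowest, so small changes of low genes could not be called.

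Genes with larger folds had lower levels within each group, which is partly set by the call, as low genes could be called only at large folds. The 11 genes that rose by at least 4-fold had a median of 1.79 CPM in R158 and 0.118 CPM in WT. The 19 that rose by less than 2-fold had 49.7 CPM in R158 and 34.5 CPM in WT. Among the falls, the 23 genes past 4-fold had a median of 0.25 CPM in R158 and 3.62 CPM in WT. The 10 that fell by less than 2-fold had 33.2 CPM in R158 and 54.2 CPM in WT.

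Summed over genes, the called groups held a small share of each library. The 39 higher genes summed to 1858, 1799 and 1729 CPM in R158 replicates 1, 2 and 3, against 1172, 965 and 927 CPM in WT. The means were 1795 ± 64.3 CPM in R158 and 1021 ± 132 CPM in WT (SD, n = 3 each). The 43 lower genes summed to 428, 389.9 and 435 CPM in R158, against 780.5, 1069 and 1145 CPM in WT, with means of 418 ± 24.2 CPM in R158 and 998 ± 192 CPM in WT. WT replicate 1 lay nearest to R158 in both sums. The genes were picked for this difference, so the sums describe its size and carry no test. The 4 genes with the largest absolute rise made up 43.1% of the summed rise, and the 4 with the largest absolute fall 41.5% of the summed fall.

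**Figure D3:**
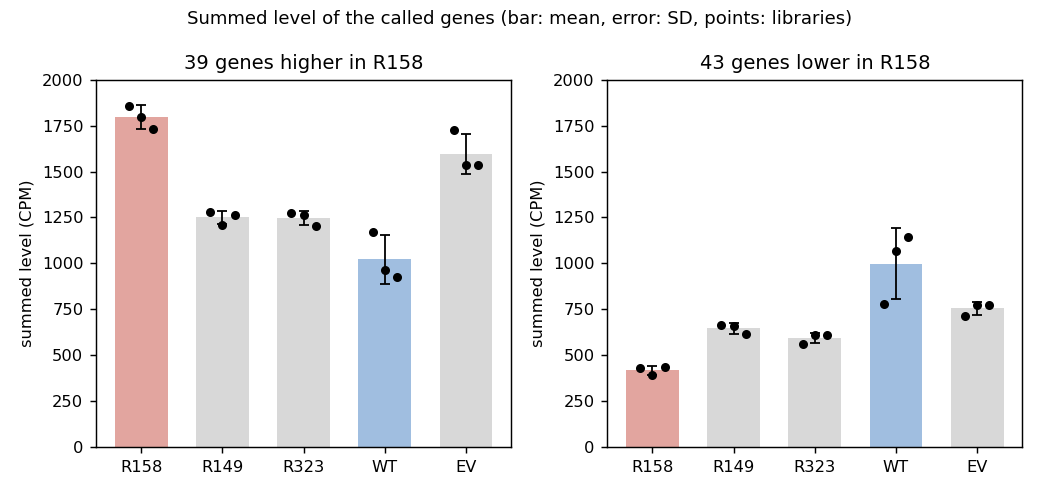
Summed CPM of the 39 higher genes (left) and the 43 lower genes (right) in each library (points), with mean (bar) and SD (error bar) of 3 libraries per line. R158 is the highest line for the higher genes, at a mean of 1795 CPM, and the lowest for the lower genes, at 418 CPM, and WT lies at the opposite end of both panels.

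R149, R323 and EV were outside the contrast that chose the genes, though they entered its filter, scaling and estimate of spread. They gave reference levels. For the higher genes, the R149 libraries summed to 1279.7, 1211 and 1262 CPM and the R323 libraries to 1273, 1261 and 1201 CPM, which is between R158 and WT and nearer to WT. The EV libraries summed to 1724, 1535 and 1535 CPM, nearer to R158. For the lower genes, the sums were 663, 660.2 and 612 CPM in R149, 563, 611 and 609 CPM in R323, and 716, 773 and 773 CPM in EV, all between R158 and WT. None of these 9 libraries reached the R158 range in either group, nor the WT range of the lower genes.

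Gene by gene, the median level of the largest falls was highest in WT. Among the 23 that fell by at least 4-fold, the median level was 0.25 CPM in R158, 0.316 in R149, 0.265 in R323, 3.62 in WT and 0.459 in EV. For the 10 falls of 2- to 4-fold it was 2.82, 4.34, 4.04, 6.87 and 8.49 CPM in the same order. Set against the log2 mean of the R149 and R323 lines, WT was called higher for 26 of the 43 lower genes. These were 20 of the 23 falls of at least 4-fold, 5 of the 10 of 2- to 4-fold and 1 of the 10 smaller falls. R158 was called lower than that mean for 6 of the 43 lower genes. For 1 of them it was called above that mean. In the same fit WT was called higher than R149 and R323 for 1.14% of all genes tested, and R158 lower for 0.256%. The lean toward WT was thus present over all genes tested and is not particular to the lower genes. The WT and R158 libraries also chose these genes, which by itself raises the counts of 26 and 6, so they are a description.

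For the higher group, R158 was the line more often called apart. R158 was called above the R149 and R323 mean for 24 of the 39 higher genes, and WT below it for 6. Over all genes tested, R158 was called above that mean for 1.19% and WT below it for 0.300%, so this lean is not particular to the higher genes. Among the 11 genes that rose by at least 4-fold, the median level was 1.79 CPM in R158, 0.580 in R149, 0.129 in R323, 0.118 in WT and 1.92 in EV. For the 9 rises of 2- to 4-fold it was 12.7 CPM in R158, 7.53 in R149, 9.92 in R323, 5.75 in WT and 36.3 in EV. The limit named for the lower genes, that the R158 and WT libraries chose them, holds here too. By the distance to the R149 and R323 mean, R158 was nearer to it than WT for 31 of 43 lower genes and 8 of 39 higher genes. Nearness was not counted over all genes tested, where both lines were called above that mean more often than below it. These counts are therefore a description.

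**Figure D4:**
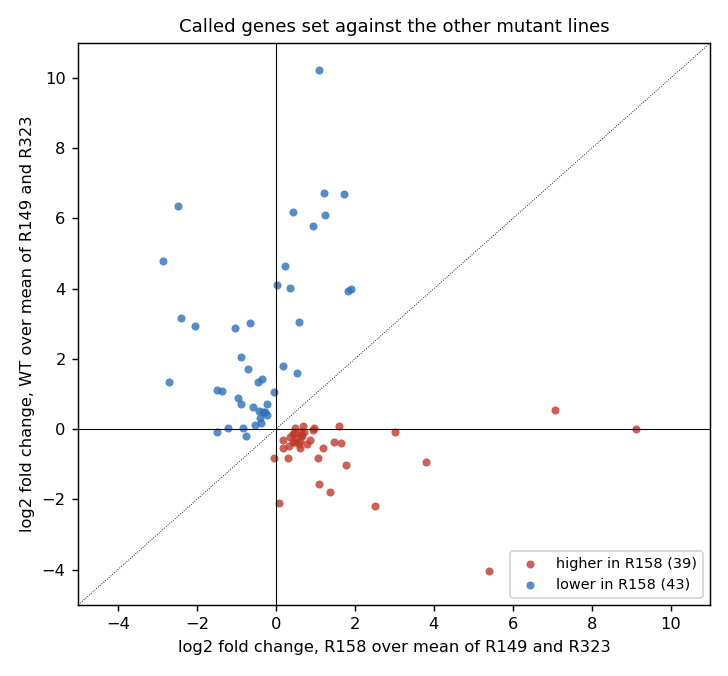
Fitted log2 fold change of R158 (horizontal axis) and of WT (vertical axis) over the mean of R149 and R323, 1 point per called gene; genes with few counts in R149 and R323 have uncertain positions. Lower genes extend up the vertical axis, with WT called above the other mutants for 26 of 43. Higher genes extend along the horizontal axis, with R158 called above the other mutants for 24 of 39. Over all genes tested, both lines were also called above the other mutants more often than below them.

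EV levels placed the called genes relative to cells without added MYC. Of the 39 higher genes, 21 had an EV mean above both R158 and WT, 10 between them and 8 below both. EV was above both lines for 4 of the 11 rises of at least 4-fold, 7 of the 9 rises of 2- to 4-fold and 10 of the 19 smaller rises. Of the 43 lower genes, 11 had an EV mean above both R158 and WT, 20 between them and 12 below both. Among the 23 lower genes past 4-fold, EV was between the lines for 12 and below both for 8. The position of EV was not counted over all genes tested, so these counts are a description. Median levels of the higher genes were 28.3 CPM in R158, 15.3 in WT and 34.6 in EV, and those of the lower genes 1.74 in R158, 9.22 in WT and 4.45 in EV.

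**Figure D5:**
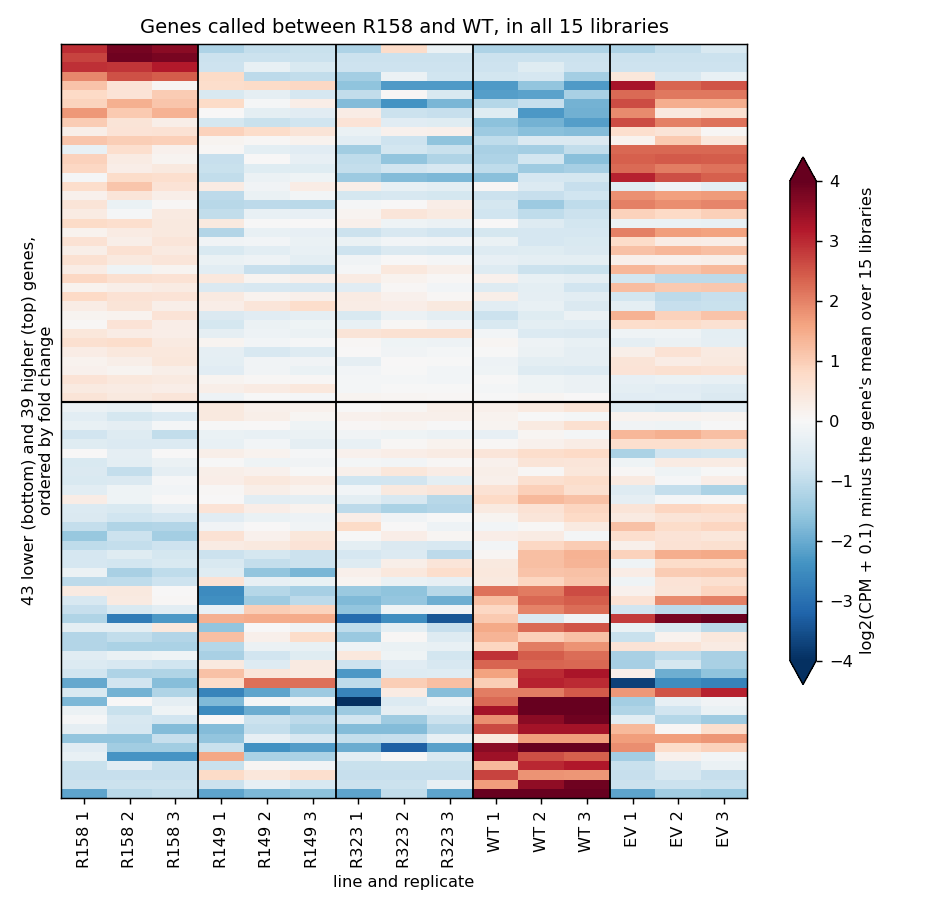
Level of the 82 called genes (rows, ordered by fold change, higher genes above the line) in all 15 libraries (columns), as log2(CPM + 0.1) minus the gene's mean over the libraries; colours saturate at 4 log2 units. The WT columns are the reddest for most of the falls at the bottom, and WT replicate 1 is paler there than replicates 2 and 3.

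Libraries of equal number differed in the called direction for every called gene, because the lines did not overlap. The size varied between pairs. The median log2 difference (log2 CPM, prior count 2) of the higher genes was 0.93, 1.07 and 1.10 between R158 and WT libraries of number 1, 2 and 3, and that of the lower genes was -1.81, -2.05 and -2.20. Pair 1 gave the smallest of the 3 differences for 32 of the 43 lower genes, 74.4%, and for 23 of the 39 higher genes, 59.0%, beside 47.9% of all genes tested. WT replicate 1 was the lowest WT library for 33 of the 43 lower genes, 76.7%, beside 40.2% of all genes tested.

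The block added 162 genes, 78 higher and 84 lower in R158, of which 20 and 28 differed by at least 2-fold. Their changes were mostly small, with median log2 fold changes of 0.69 and -0.76 in the blocked fit. The added higher genes had a median of 30.8 CPM in R158 and 22.1 CPM in WT, and the added lower genes 15.7 CPM in R158 and 25.4 CPM in WT. All 162 differed in 1 direction in the 3 pairs of equal number, as 45.3% of all genes tested did. R158 and WT libraries did not overlap for 61 of the added higher and 59 of the added lower genes, beside 13.0% of all genes tested. The blocked test chose these genes from the same libraries. That by itself raises these counts and the agreement of the pairs, so they are a description.

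A smaller set of genes was called whichever of the 6 libraries was left out. It held 14 genes, 7 higher and 7 lower, with ENSRNOG00000052880 and ENSRNOG00000015783 among them. The 7 higher genes averaged between 1.79 and 42.4 CPM in R158, with a median log2 fold change of 2.18. The 7 lower genes averaged between 1.78 and 50.0 CPM in WT, with a median log2 fold change of -4.84. The smallest change among the 14 was 0.86 on the log2 scale, and the highest edgeR adjusted p with all libraries was 0.00325.

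Most genes were not called, and their intervals show what could have been missed. Of the 13594 genes not called, the 95% interval of the fold change lay within 2-fold either way for 80.2% and within 1.5-fold for 55.7%. For 2689 genes the interval reached beyond 2-fold. The fitted difference itself was 2-fold or more for 378 of them, 170 higher and 208 lower in R158, and the median level of these in the higher line was 0.705 CPM. At an unadjusted edgeR p below 0.05, 1505 genes differed, and 2318 with the replicate block. Over all genes tested, the central 95% of log2 fold changes ran from -0.78 to 0.78.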

How the data were processed

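The deposited values are raw counts per Ensembl gene, whole numbers without normalization, in 1 table per library. Per the submitters' processing notes, TopHat2 2.1.0 and the rat build Rnor_6.0 were used, and per the labels' protocols the kit was a stranded dUTP mRNA kit. How reads were counted, whether strand was used and which annotation served is not given in the sources used here. Values of near-identical or overlapping genes are therefore uncertain. Totals ran from 13303631 to 108933235 counts.

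Genes passing edgeR's filterByExpr (minimum 10 counts) were scaled with TMM. A quasi-likelihood fit by line took all 15 libraries (edgeR 4.0.16, R 4.3.3), and from it R158 minus WT was tested with Benjamini-Hochberg adjustment over 13676 genes. DESeq2 1.42.0 and limma 3.58.1 were alternatives. The procedure was also run on simulated counts drawn without an effect of replicate number. That run cannot show how the procedure behaves where libraries of equal number deviate together. The SE is the log2 fold change divided by the root of its F statistic. Intervals of fold changes cover the fitted spread between replicates, and floors of 3 counts cover counting error only. The replicates are labelled biological, and p-values measure the spread between cultures of 1 line. No replicates of R158 or WT agreed within counting noise (chi-square per degree of freedom 19.5 to 62.2).

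Replicate numbers come from the labels. Deviations from the line means correlated between R158 and WT libraries of equal number at 0.498, 0.402 and 0.419 (replicates 1, 2 and 3). The labels do not state that equal numbers were paired, so the block was an alternative fit. Values with the block are marked as such. Counts without a library, size classes and intervals come from fits without the block.

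Named genes were the 2 largest rises and 2 largest falls among called genes with at least 1 CPM in the higher line and no overlap of libraries; the 27 gene and marker lists, and a longer list of names, needed symbols and were not used. The comparison, lists and rules were chosen with earlier results of these data known.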

Additional observations from a re-analysis of the deposited data

How the results depend on the processing

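All 82 called genes kept their direction in each of the 19 alternatives in which they were tested, but the number of calls did not hold. Against 82 genes called and 53 by at least 2-fold, a fit of the 6 libraries alone called 43 genes, of which 36 were among the 82. The replicate block called 244 and 101, or 676 and 185 in the 6 libraries alone, and 234 and 97 with scaling by total counts. DESeq2 called 228 and 103, and limma-voom 52 and 30. Leaving out 1 library gave between 19 and 206 genes called and between 17 and 116 by at least 2-fold, with 143 and 94 without R149 replicate 1. Replicates 2 and 3 of every line alone, chosen after seeing the data together with the block under total counts, called 996 and 314. The cause was not tested. RLE factors, upper quartile scaling, total counts and filters gave 72 to 114 genes. The tools edgeR, DESeq2 and limma-voom shared 48 calls, 30 higher and 18 lower. ENSRNOG00000014253 did not pass the filter of 1 CPM in 3 libraries. The alternatives for gene lists were not run, because identifiers had no symbols. Depth limits the low genes, where the median SE was 0.44 on the log2 scale.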

Other observations

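ENSRNOG00000047746, picked after its values were seen, was the most abundant gene with at least a 2-fold fitted difference that was not called. It stood at 418, 346 and 222 CPM in R158 replicates 1, 2 and 3, against 176, 2331 and 2529 CPM in WT replicates 1, 2 and 3. The R158 and WT libraries overlapped because WT replicate 1 was below every R158 library, and the other WT libraries were above all R158 libraries. The log2 fold change was -2.35 ± 0.69 (SE) with an edgeR adjusted p of 0.189, and 0.151 with the replicate block. The level was 195, 234 and 514 CPM in R149, 267, 294 and 776 CPM in R323, and 233, 259 and 159.6 CPM in EV.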
